A study of Mus musculus with 18 samples.

Results

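The genes described here mark retinal ganglion cells, or build the neurofilaments that fill their axons: the transcription factors Pou4f1, Pou4f2 and Isl1, the RNA-binding protein gene Rbpms, Sncg, Thy1 and Opn4, and the neurofilament subunit genes Nefl, Nefm and Nefh. Every probe set whose single gene symbol in the array annotation was 1 of these 10 names was taken. Of the 10 genes, 9 had such a probe set, and together they had 16 of the 45037 probe sets on the array after controls were left out; Pou4f2 had none and is only named here. The annotation gave 18193 genes a probe set of a single symbol. Where a gene had several probe sets, the one with the highest mean over the 18 arrays leads, and the others are given beside it.

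The arrays measured RNA of whole isolated retinas at postnatal day (P) 0, at P7 and in adults, in mice labelled Plk3-KO and in their wildtype (WT) littermates, with 3 arrays for each age and genotype. Polo-like kinase 3 (Plk3) is a kinase whose germline deletion all Plk3-KO mice carried and the WT mice did not; the labels give the strain as C57Bl/6, and the line, partly of Black Swiss background, had been bred to C57Bl/6 until the retinal degeneration allele of that background was lost. The arrays ask how these genes change as the retina matures and whether Plk3 loss alters them. The study describes the samples as retinas of Plk3-KO mice and of WT littermates and speaks of biological replicates, while the labels tie no array to an animal; the p-values measure the spread between these arrays. Values are log2 MAS5 signals, deposited with 1 decimal, on which a difference of 1 is a doubling. Values of different probe sets are not set against each other, because each binds its transcript with its own strength.

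Retinal ganglion cells are the output neurons of the retina, and their axons form the optic nerve. They are among the earliest retinal neurons to be born, so at birth they are postmitotic and are still growing and connecting. Atoh7 (Math5) gives progenitors the competence to become ganglion cells, and the POU-domain factors Pou4f1 (Brn3a) and Pou4f2 (Brn3b), together with the LIM-homeodomain factor Isl1, then act in their differentiation. Neurofilaments are heteropolymers of a light, a medium and a heavy subunit, which widen large axons, and the heavy subunit is known to join them late in maturation.

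The promoters of 5 of the 10 genes were in the RefSeq promoter table used (build GRCm38.p6): those of Pou4f1, Pou4f2, Isl1, Sncg and Opn4. The windows hold 300 bases, from 250 before to 50 after the annotated start. Those of 3 genes are shown because their levels took different courses with age, as described below. Capitals mark CANNTG, the E-box core, which bHLH factors such as Atoh7 bind. The windows lie at chr14:104467950-104468249 (minus strand) for Pou4f1, at chr13:116309639-116309938 (minus strand) for Isl1 and at chr14:34374620-34374919 (minus strand) for Sncg.
Pou4f1: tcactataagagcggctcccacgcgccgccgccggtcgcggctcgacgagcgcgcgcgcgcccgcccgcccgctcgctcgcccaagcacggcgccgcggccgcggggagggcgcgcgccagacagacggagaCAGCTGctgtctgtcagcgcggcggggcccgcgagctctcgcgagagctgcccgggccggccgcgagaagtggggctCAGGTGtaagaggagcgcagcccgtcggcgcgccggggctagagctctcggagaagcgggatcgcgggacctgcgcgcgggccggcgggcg
Isl1: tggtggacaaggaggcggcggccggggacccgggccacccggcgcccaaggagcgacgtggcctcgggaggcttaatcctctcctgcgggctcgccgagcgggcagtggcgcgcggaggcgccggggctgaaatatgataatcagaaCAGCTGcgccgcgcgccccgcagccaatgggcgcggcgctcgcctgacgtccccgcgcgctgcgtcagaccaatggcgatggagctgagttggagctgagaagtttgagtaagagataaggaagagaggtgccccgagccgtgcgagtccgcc
Sncg: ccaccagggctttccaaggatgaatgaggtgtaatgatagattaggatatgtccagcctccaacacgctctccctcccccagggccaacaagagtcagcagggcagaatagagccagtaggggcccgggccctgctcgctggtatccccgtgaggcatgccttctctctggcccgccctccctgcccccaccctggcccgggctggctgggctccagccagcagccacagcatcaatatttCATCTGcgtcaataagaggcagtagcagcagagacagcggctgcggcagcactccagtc
The Pou4f1 window held 2 E-box cores, and the Isl1 and Sncg windows held 1 each. The Opn4 window held 1 and the Pou4f2 window 0. Of all 32851 promoter windows of this length, 72.3% held at least 1, so an E-box core is common in such windows. The Pou4f2 window instead held 5 copies of GGGCGG and the Pou4f1 window 2, a motif found on either strand in 35.7% of all windows, with overlapping copies counted separately. TAAT, the core that homeodomain factors bind, was found on either strand at 2 places in each of the Isl1 and Sncg windows, at 1 in that of Opn4 and at 0 in both Pou4f windows, against 58.0% of all windows with at least 1. None of the 5 windows held TATAAA, which 13.6% of all windows held on either strand. The Pou4f1 window was 78.3% G and C, the Isl1 window 69.0% and the Sncg window 61.3%, where the median window had 52.7%. These matches describe the letters of the windows and were not tested as binding sites.

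Some arrays stood apart. The array medians ran from 6.3 to 7.2, and the 3′ minus 5′ difference of the actin control probe sets, which grows as RNA is degraded or under-amplified, was 1.0 to 1.3 at P0, 0.8 to 1.6 at P7 and 1.6 to 2.7 in adults. The adult Plk3-KO array 3 had the value of 2.7 and a median correlation of 0.879 with the other adult arrays, which had 0.934 to 0.943. Both adult arrays 3 had high medians, 7.0 in WT and 7.2 in Plk3-KO, where the other 4 adult arrays had 6.3 to 6.5. At P7 the WT array 3 and the Plk3-KO array 2 had actin differences of 1.6 and medians of 6.4, where the other 4 arrays of that age had 0.8 to 1.1 and 6.8 to 6.9. The single Plk3 probe set read higher in Plk3-KO than in WT at every age, at 7.90 against 6.87 at P0, 7.30 against 6.10 at P7 and 7.70 against 5.20 in adults. The deletion removes the first exons, and probe sets of this array type lie toward the 3′ end of a transcript, so this probe set does not check the deletion. The P7 array labelled Plk3-KO 2 read 6.1 for it, within the 6.0 to 6.3 of the P7 WT arrays. Age and any batch in which arrays of an age were run cannot be told apart, since no batch is given. The scaling of the arrays also bears on the age changes: the median change from P0 to adult over all probe sets tested was -0.20 in WT with the deposited values, -0.05 after quantile normalization and 0.23 with the arrays set to the same median. The share of calls that were higher in adults moved with it, from 44.2% to 49.6% and 60.9%.

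The neurofilament genes were higher in the older retinas, by very different amounts. Nefh, the heavy subunit, read 7.1, 7.5 and 7.4 in the WT arrays at P0, 10, 10.2 and 9.3 at P7, and 11.5, 11.8 and 11.2 in adults. In Plk3-KO it read 7.9, 7.6 and 7.4 at P0, 10.1, 9.9 and 10 at P7, and 11.2, 11.7 and 11.2 in adults. The arrays of the 3 ages did not overlap in either genotype. Nefh rose in WT by 2.50 ± 0.24 (SE of the log2 difference, n = 3 arrays per group) from P0 to P7, and by 1.67 ± 0.24 from P7 to adult. Its rise from P0 to adult was 4.17 in WT and 3.73 in Plk3-KO, which are 18-fold and 13.3-fold on the linear scale. Its P0 means, 7.33 in WT and 7.63 in Plk3-KO, lay near the minimum mean of 7 used here. The adjusted p of the 2 changes from P0 to adult was 2.4e-09 and 7.3e-09 in limma's moderated test, adjusted by Benjamini-Hochberg over all probe sets tested. In whole retinas, the number of cells of a type and the RNA per cell cannot be told apart, for Nefh and for every gene below. The arrays also do not show which cell types gave the signal of a neurofilament gene.

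Nefm, the medium subunit, took its whole rise by P7. It read 10.3, 10.9 and 10.4 in the P0 WT arrays, 12, 12.4 and 11.6 at P7, and 11.8, 12.2 and 11.7 in adults. In Plk3-KO its values were 11.1, 10.8 and 10.6 at P0, 11.8, 12.3 and 12.5 at P7, and 11.7, 12.5 and 11.7 in adults. The P7 arrays lay above the P0 arrays in both genotypes, while P7 and adult arrays overlapped. Nefm rose by 1.47 ± 0.27 in WT and by 1.37 ± 0.27 in Plk3-KO from P0 to P7. Its differences from P7 to adult, -0.10 (95% confidence interval -0.68 to 0.48) and -0.23 (-0.81 to 0.34), did not pass the test.

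Nefl, the light subunit, rose from P0 to adult in both genotypes. Its leading probe set read 13.4, 13.6 and 12.7 in the P0 WT arrays, 14.0, 13.9 and 13.9 at P7, and 14.4, 14.5 and 14.2 in adults. The Plk3-KO arrays gave 13.4, 13.2 and 12.7 at P0, 13.8, 14.5 and 14.1 at P7, and 14.2, 14.4 and 14.7 in adults. All adult arrays lay above all P0 arrays, and the change from P0 to adult was 1.13 ± 0.26 in WT and 1.33 ± 0.26 in Plk3-KO. The P7 step passed the test in Plk3-KO (1.03, adjusted p = 0.0088, but 0.83 and adjusted p = 0.058 without the P0 Plk3-KO array 3) and not in WT (0.70, adjusted p = 0.068). The second Nefl probe set had WT means of 12.23, 13.13 and 14.17 at P0, P7 and adult, and its rises of 0.90 and 1.03 in WT and 1.10 and 0.73 in Plk3-KO all passed the test. The 95% interval of the Nefh change from P0 to adult in WT, 3.66 to 4.68, lay above those of Nefm (0.79 to 1.94) and of Nefl (0.58 to 1.68), a comparison of probe sets whose responses may differ.

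Pou4f1, the POU-domain factor of differentiating and mature ganglion cells, went the other way. It read 11.5, 10.7 and 11.7 in the P0 WT arrays, 10.1, 10.8 and 10.4 at P7, and 9.2, 9.0 and 8.6 in adults. In Plk3-KO the signal was 11.6, 10.9 and 12 at P0, 10.1, 10.3 and 10.9 at P7, and 9.1, 9.3 and 9.6 in adults. P0 and P7 arrays overlapped in both genotypes, and every adult array lay below every P7 array. From P0 to adult Pou4f1 fell in both genotypes, by a log2 difference of -2.37 ± 0.32 in WT and -2.17 ± 0.32 in Plk3-KO, to levels 5.16-fold and 4.49-fold lower. Over the same time the 4 rod markers measured rose in both genotypes, with a median change of 3.67 in WT, and their mean level over the list went from 10.15 to 10.70 at P0 to 15.22 to 16.65 in adults. The part of the rod genes in the falls was not tested. The change from P0 to P7 was -0.87 in WT (adjusted p = 0.063) and -1.07 in Plk3-KO (adjusted p = 0.023). The Plk3-KO call was lost without the P0 array 1 or 3 or the P7 array 1 or 2, with values of -0.82 to -1.02, and with the arrays set to the same median (-0.83). From P7 to adult Pou4f1 fell in both genotypes (-1.50 in WT and -1.10 in Plk3-KO), and the latter was no longer called without the P7 array 3 (-0.87) or the adult array 1 (-0.98) or 2 (-1.08). The second Pou4f1 probe set fell in all 6 age comparisons of the 2 genotypes, with -2.30 in WT and -3.0 in Plk3-KO from P0 to adult.

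Rbpms, an RNA-binding protein found in all ganglion cell types of the rodent retina, was also lower in adults. Its leading probe set read 10.5, 10.9 and 10.7 in the P0 WT arrays, 10, 10.6 and 9.6 at P7, and 9.8, 10 and 9.7 in adults. The 3 groups of Plk3-KO arrays read 10.8, 10.7 and 10.7 at P0, 9.8, 10.5 and 10.3 at P7, and 9.5, 9.6 and 9.5 in adults. All adult arrays lay below all P0 arrays. It fell in both genotypes from P0 to adult (-0.87 ± 0.23 in WT and -1.20 ± 0.23 in Plk3-KO). The WT change did not pass the test with the arrays set to the same median (-0.50, adjusted p = 0.23) or as the mean over all Rbpms probe sets (-0.55, adjusted p = 0.11). The P7-to-adult change in Plk3-KO was -0.67 (adjusted p = 0.049) and was lost without P7 array 2 (-0.52) or 3 (-0.62), or any of the 3 adult arrays (-0.65 to -0.70). Of the 3 further Rbpms probe sets, 1 passed the test from P0 to adult, in Plk3-KO (-1.47), and the other WT and Plk3-KO values ran from -0.07 to -0.83. From P7 to adult in Plk3-KO the same probe set was called (-1.37, adjusted p = 0.018), and the others were not (-0.53 and -0.87). Of the 4 Rbpms probe sets, 3 carry a suffix that marks probes shared by different transcripts, so signal from related sequences cannot be told apart from that of Rbpms there. The leading probe set and the further one called in Plk3-KO are among these 3. The probe set without that suffix changed from P0 to adult by -0.07 in WT (adjusted p = 0.89) and -0.67 in Plk3-KO (adjusted p = 0.15). Neither change passed the test.

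Isl1, the LIM-homeodomain factor, read highest at P7. It is also expressed in ON bipolar and starburst amacrine cells, so its signal is not that of ganglion cells alone. It read 11.9, 11.5 and 11.8 in the P0 WT arrays, 12.9, 12.8 and 12.7 at P7, and 12.2, 12.3 and 12.4 in adults. Plk3-KO arrays read 11.7, 11.5 and 11.9 at P0, 13.1, 12.3 and 12.9 at P7, and 11.1, 11.9 and 12.1 in adults. The P7 arrays lay above those of both other ages in each genotype. Isl1 rose from P0 to P7 by 1.07 ± 0.24 in both genotypes. From P7 to adult it fell by 1.07 ± 0.24 in Plk3-KO (adjusted p = 0.0064, or 0.084 in a fit of these 2 groups only). The WT difference was -0.50 (adjusted p = 0.16, or -0.60 and 0.047 without both adult arrays 3, the P7 WT array 3 and the P7 Plk3-KO array 2). In the methods' t-test the unadjusted p of this step was 0.0036 in WT and 0.052 in Plk3-KO. A difference between genotypes in the change from P7 to adult was not tested. Over the same ages the mean of 6 bipolar cell markers went from 7.32 to 7.88 in the P0 WT arrays to 9.53 to 10.03 at P7 and 11.05 to 11.47 in adults. In the Plk3-KO arrays it went from 6.78 to 7.83 at P0 to 9.40 to 10.02 at P7 and 10.78 to 11.45 in adults. The part of the bipolar cell genes in the Isl1 signal was not tested. The second Isl1 probe set had the same course in its group means, with WT means of 10.17, 11.20 and 10.83. Its P7 arrays did overlap those of other ages. The P7 WT array 3 read 10.2, as high as P0 WT arrays and below all adult WT arrays (10.7 to 11.0). The P7 Plk3-KO array 2 read 10.5, within the adult Plk3-KO range of 9.9 to 10.6. Its 1 call was the rise from P0 to P7 in Plk3-KO (1.50).

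Thy1, a GPI-anchored surface glycoprotein used to purify ganglion cells, rose at each step. It read 10.1, 10.1 and 10.2 in the P0 WT arrays, 11.4, 11.6 and 10.9 at P7, and 13.1, 12.9 and 12.2 in adults. Its Plk3-KO values were 10.2, 9.9 and 10.3 at P0, 11.2, 11.1 and 11.7 at P7, and 12.3, 12.6 and 12.5 in adults. No 2 ages overlapped in either genotype. Its change from P0 to adult was 2.60 ± 0.24 in WT and 2.33 ± 0.24 in Plk3-KO, or 6.06-fold and 5.04-fold. T cells also carry Thy1. The mean over 5 T cell markers ran from 3.76 to 4.22 in the P0 WT arrays and from 3.72 to 5.70 in the adult WT arrays; Cd2 and the Cd3 genes had group means of at most 4.53, and Ptprc passed 7 in 1 group, with 7.10 in P7 WT. Their part in the Thy1 signal was not tested.

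Sncg and Opn4 had no change between ages that passed the test in WT. Sncg, gamma-synuclein, is abundant in ganglion cells. It read 12.1, 11.6 and 11.2 in the P0 WT arrays, 11.8, 11.7 and 12.2 at P7, and 12.4, 12.2 and 11.8 in adults, and all 3 ages overlapped. In the Plk3-KO arrays it was 11.3, 11.2 and 10.9 at P0, 11.5, 11.9 and 11.8 at P7, and 11.6, 11.6 and 12.3 in adults, so both older ages lay above P0. The change from P0 to adult was 0.50 ± 0.25 in WT (adjusted p = 0.11) and 0.70 ± 0.25 in Plk3-KO (adjusted p = 0.033), and the latter call was lost without the P0 array 2 (0.73) or 3 (0.58) or the adult array 3 (0.47). The WT change passed the test without the P0 WT array 1 (0.73, adjusted p = 0.036) and with array weights (0.55, adjusted p = 0.013), whose estimate did not converge. Without both adult arrays 3, the P7 WT array 3 and the P7 Plk3-KO array 2, it passed in WT (0.67, adjusted p = 0.015) and not in Plk3-KO (0.47, adjusted p = 0.075). The Plk3-KO call was lost in 7 of 17 alternatives. The change from P0 to adult differed between genotypes by 0.20 (-0.56 to 0.96), which did not pass the test. Opn4, melanopsin, marks the few intrinsically photosensitive ganglion cells. Its leading probe set stayed between 6.4 and 8.0 on all arrays, close to the minimum mean of 7 used here. Its group means ran from 7.07 at P0 in both genotypes to 7.63 in adult WT and 7.70 in adult Plk3-KO. Neither change from P0 to adult passed the test (0.57, 95% interval -0.11 to 1.24, and 0.63, -0.04 to 1.31), and the WT change did after quantile normalization (0.86, adjusted p = 0.049). The second Opn4 probe set had group means of 5.80 to 7.07.

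**Figure D1:**
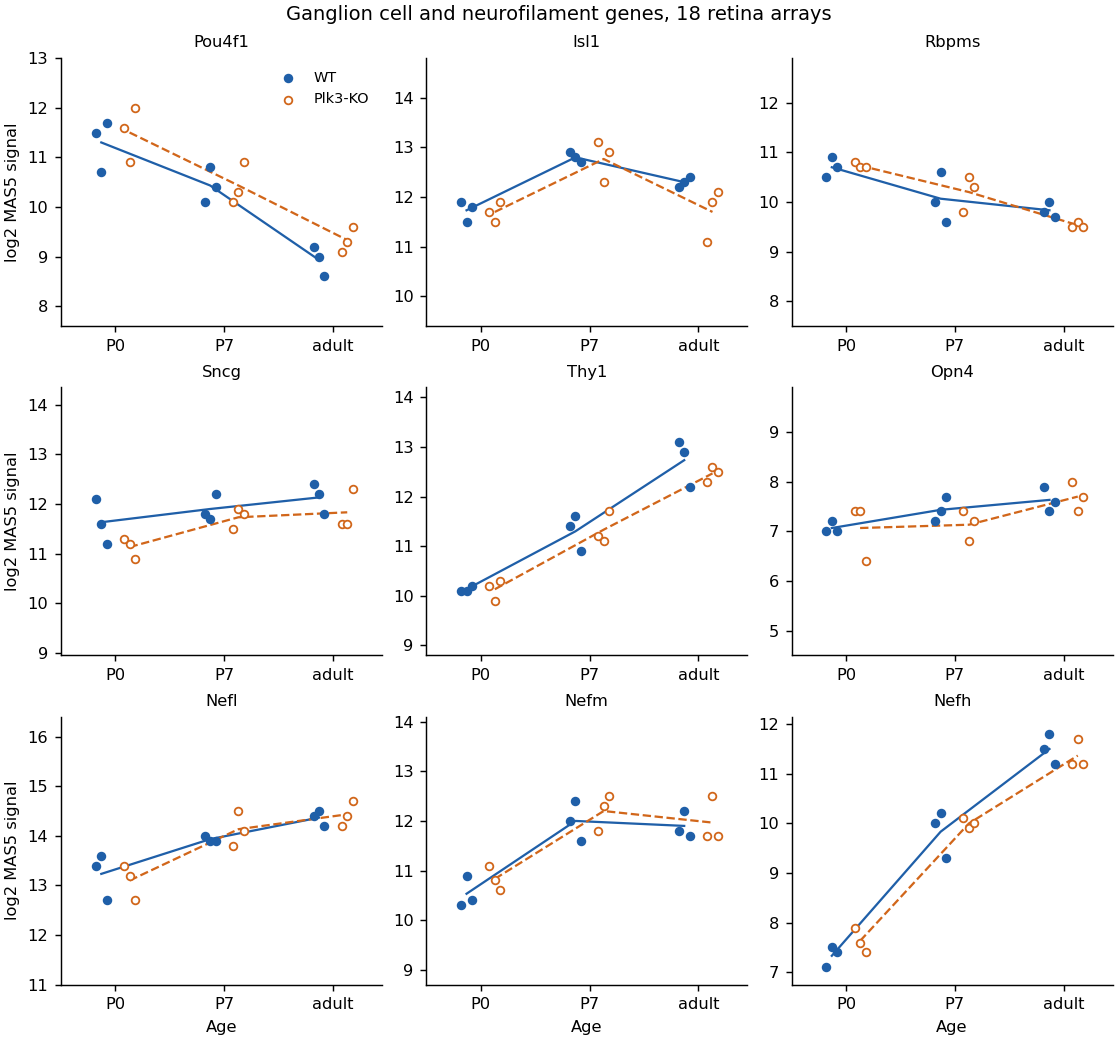
Log2 MAS5 signal (y axis, the same span of log2 units in each panel) of the leading probe set of 9 genes by age (x axis). Each point is an array, filled for WT and open for Plk3-KO, and the lines join group means of 3 arrays: Nefh and Thy1 climb at both steps, Pou4f1 and Rbpms go down, Isl1 is highest at P7, and Opn4 stays between 6.4 and 8.0.

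Counted over the 9 genes, 4 rose and 0 fell from P0 to P7 in WT, where 10.8% of all probe sets tested were called higher and 9.6% lower. From P7 to adult 2 rose and 1 fell, against 9.95% and 9.75% of all probe sets, and from P0 to adult 4 rose and 2 fell, against 21.3% and 26.9%. In Plk3-KO 5 rose and 1 fell from P0 to P7 (10.6% and 10.5% of all), 2 rose and 3 fell from P7 to adult (9.16% and 10%), and 5 rose and 2 fell from P0 to adult (20.1% and 25.2%). The 5 calls from P7 to adult in Plk3-KO became 3 without the P7 array 3 or the adult array 1 or 2. From P0 to adult, Nefh, Nefl, Nefm and Thy1 were called higher and Pou4f1 and Rbpms lower in both genotypes, and Sncg was called higher in Plk3-KO. The median change of the 9 genes from P0 to adult was 0.57 in WT and 0.70 in Plk3-KO, against -0.20 over all probe sets tested in each genotype.

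**Figure D2:**
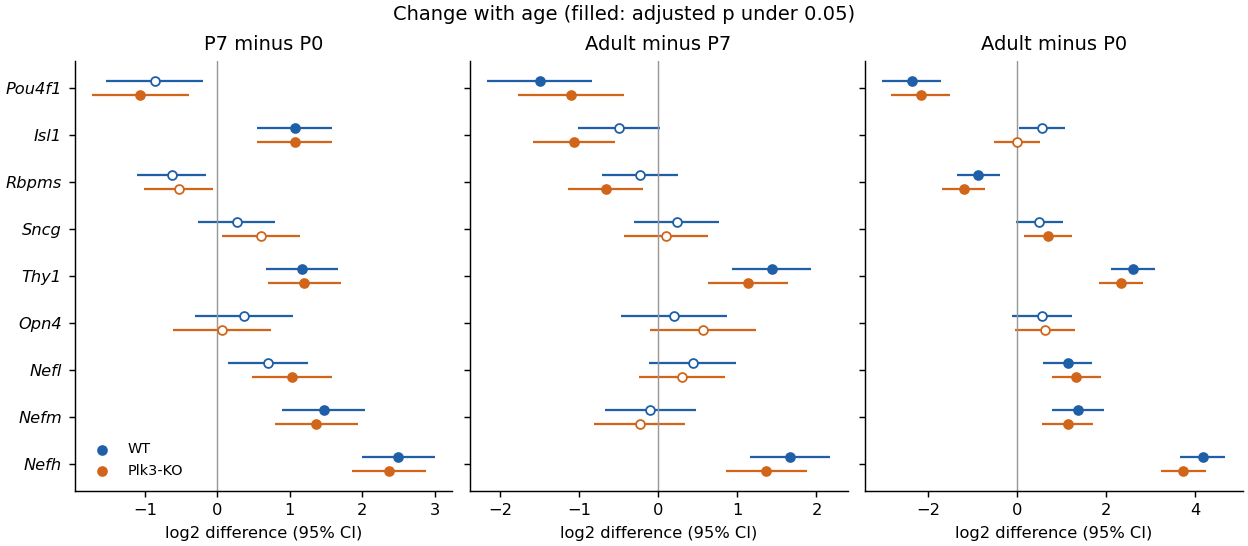
Log2 difference between ages (x axes) with its 95% confidence interval for 9 genes (rows), from the limma fit with 3 arrays per group; blue is WT, orange Plk3-KO, and filled points passed an adjusted p of 0.05. Nefh has the largest change of these genes, 4.17 in WT and 3.73 in Plk3-KO from P0 to adult, and Pou4f1 lies farthest below 0.

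No difference between Plk3-KO and WT passed the test in any of the 9 genes at any age. The counts of members and of all probe sets called were 0 in adults, at P7, at P0 and for the mean over the 3 ages, and so were those for a difference between genotypes in the change from P0 to adult or from P0 to P7 (0% of all probe sets in each). The Plk3 probe set, at 7.70 in adult Plk3-KO against 5.20 in adult WT, was tested at each age and not called. The study measured more RNA of the 3′ end of Plk3 in the knockout by qPCR. A count of 0 therefore does not show that no gene differed. At an unadjusted p under 0.05, limma gave 1008 of 21005 probe sets tested in adults, 123 of 21390 at P7 and 85 of 22611 at P0. With no difference at all, a share of 0.05 would be expected to pass. The adult count lay near that share, and the counts at P7 and P0 lay far below it. The p-values at P7 and P0 therefore ran high, and their low counts do not show that differences were absent. The fit takes the spread of a probe set from all ages together, and the intervals rest on the same spread. Its part in the low counts was not tested. The intervals show what the arrays could have missed: across the 9 genes the 95% limits reached from -1.12 to 1.07 in adults, -0.97 to 0.78 at P7 and -1.03 to 0.88 at P0. For Nefh, the gene with the largest change with age, the adult difference was -0.13 (-0.64 to 0.38), against 4.17 for its change with age in WT.

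Among the leading probe sets, the largest genotype difference was that of Isl1 in adults, -0.60 (95% interval -1.12 to -0.08, unadjusted p = 0.025, adjusted p = 0.98 in limma). The 3 adult Plk3-KO arrays (11.1, 11.9 and 12.1) lay below the 3 WT arrays (12.2, 12.3 and 12.4). Without the Plk3-KO array 1 the difference was -0.30. The second Isl1 probe set showed the same order, at 9.9, 10.5 and 10.6 in Plk3-KO against 11, 10.7 and 10.8 in WT. Beside it, the 6 bipolar cell markers had a median difference of -0.17 in adults, and their mean was 10.78 to 11.45 in Plk3-KO and 11.05 to 11.47 in WT. Of 5 genes listed as starburst amacrine markers, 3 passed the minimum signal, with differences of -0.43 for Sox2, -0.20 for Slc18a3 and -0.10 for Megf10. Sox2 and Megf10 are not particular to starburst cells, so their values are not those of these cells alone. The mean over all 5 was 6.60 to 7.0 against 7.14 to 7.88, and it held Slc5a7 (group means of 3.23 in Plk3-KO and 5.17 in WT) and Chat (5.40 and 6.10), which were below that minimum. Other lists moved in the same comparison, with median differences of -0.40 for 7 amacrine, -0.33 for 5 horizontal cell, -0.30 for 5 Mueller glia, -1.80 for 4 lens and 0.37 for 4 rod markers, against -0.03 over all probe sets tested. No gene of these lists was called, and their part in the Isl1 and Rbpms differences was not tested. The difference between genotypes in the change from P0 to adult was -0.57 (-1.30 to 0.16, adjusted p = 1.0).

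Rbpms was the other gene whose adult groups did not overlap, at 9.5, 9.6 and 9.5 in Plk3-KO and 9.8, 10 and 9.7 in WT, a difference of -0.30 (-0.78 to 0.18). The two-tailed test that the methods name, run here with pooled variance and unadjusted, called this difference and no other member in adults. Its 3 further probe sets all overlapped, with differences of -0.03, -0.47 and -0.70. The second Opn4 probe set, below the minimum signal in adults, differed by -0.83 (-1.95 to 0.28). So 2 of 9 genes did not overlap in adults, where 5.48% of all probe sets tested did not; at P7 and P0 the counts were 0 of 9, with 1.92% and 3.49% of all. An exact test of 3 against 3 arrays cannot give a two-sided p under 0.1. Sncg was lower in Plk3-KO at all 3 ages, by 0.50 at P0, 0.17 at P7 and 0.30 in adults, and its mean difference over ages of -0.32 (-0.63 to -0.01) had an unadjusted p of 0.042 and an adjusted p of 1. Pou4f1 gave opposite signs in adults, 0.40 for the leading and -0.50 for the second probe set.

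**Figure D3:**
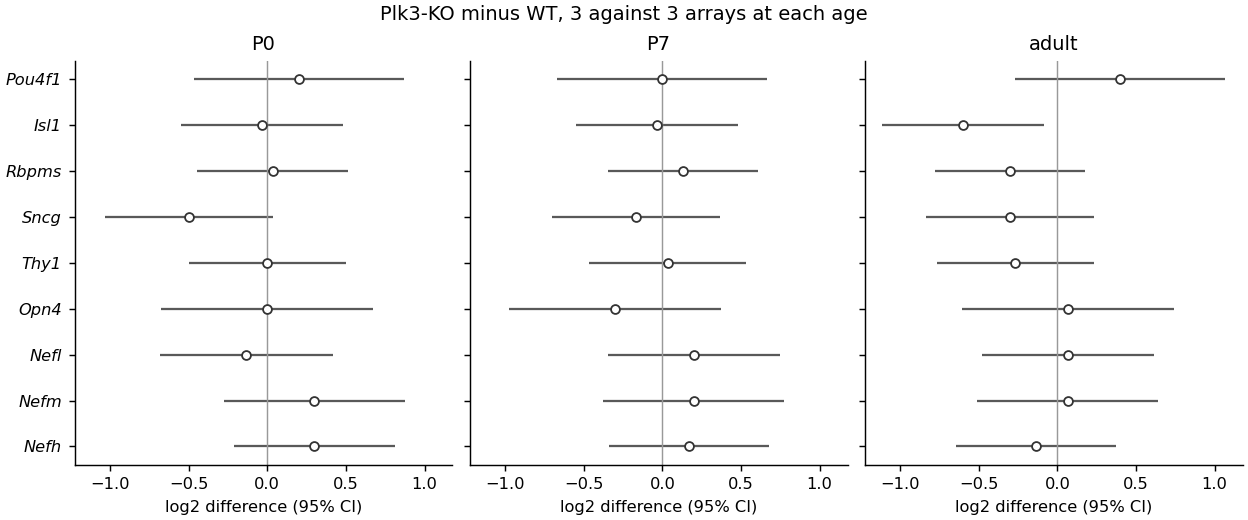
Plk3-KO minus WT log2 difference (x axes) with its 95% confidence interval for 9 genes (rows) at P0, P7 and in adults, 3 against 3 arrays. No difference passed an adjusted p of 0.05, and the interval of Isl1 in adults (-1.12 to -0.08) is the 1 that leaves out 0.

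**Figure D4:**
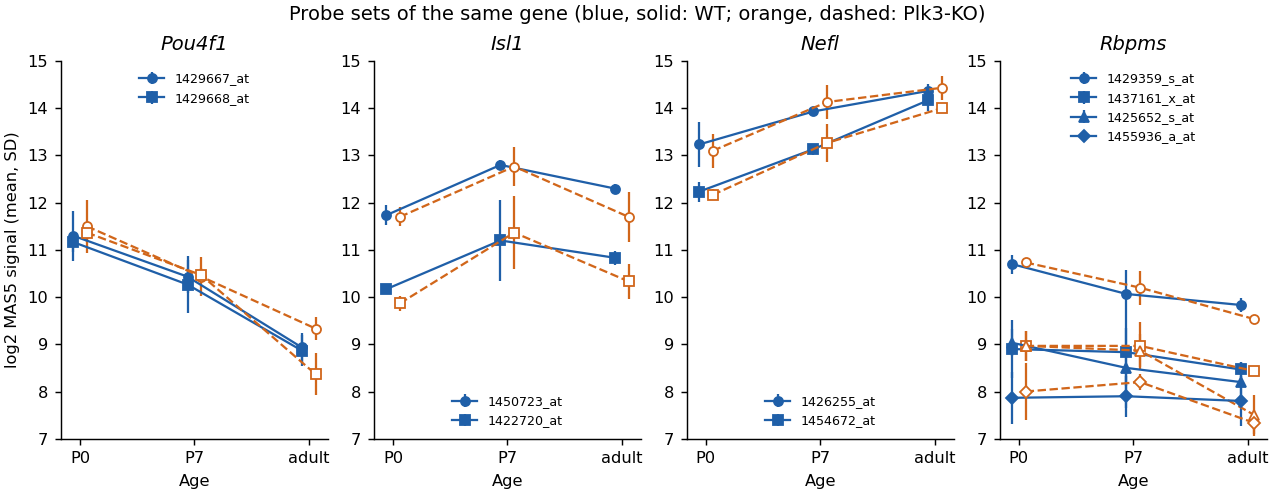
Group means of log2 MAS5 signal (y axis; bars are the SD of 3 arrays) by age for the probe sets of 4 genes, blue and solid for WT, orange and dashed for Plk3-KO. Both Pou4f1 probe sets go down, both Isl1 probe sets are highest at P7, both Nefl probe sets climb, and the 4 Rbpms probe sets differ in their fall.

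Other ganglion cell genes were called in both directions from P0 to adult, where 21.3% of all probe sets tested were called higher and 26.9% lower in WT, 20.1% and 25.2% in Plk3-KO, and the median change was -0.20 in each. Of 14 further transcription factors of ganglion cells, 11 passed the minimum signal, and 8 of these 11 fell in both genotypes while 0 rose; the median change was -0.93 in WT and -1.40 in Plk3-KO. Sox4, a SoxC factor of young neurons, fell in both (-3.57 in WT and -4.27 in Plk3-KO), as did Sox11 of the same group (-5.80 and -5.67). Atoh7, which acts in progenitors, read a mean of 11.60 in WT at P0 and 7.10 in adults. Ebf1, Ebf3 and Isl2 did not pass the test in either genotype. The 6 progenitor markers all fell over the same time, with a median of -7.25 in WT, and their part in the fall of factors that progenitors and young neurons share was not tested.

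Of 13 further ganglion cell genes measured, 5 rose and 4 fell from P0 to adult in WT, and 6 rose and 4 fell in Plk3-KO, beside the same shares of all probe sets; the median change was 0.50 and 0.33. The 4 that rose in both were Cartpt, a neuropeptide (5.33 in WT), Chrna6, a nicotinic receptor subunit (2.60), Nrn1, neuritin (2.27), and Slc17a6, the vesicular glutamate transporter of ganglion cells (1.27). The 4 that fell in both were Cd24a (-3.43), the growth cone protein gene Gap43 (-2.03), the adhesion molecule gene L1cam (-1.07) and the stathmin family gene Stmn2 (-0.80). Several of these genes are also expressed in amacrine and other neurons. Of 14 other intermediate filament and axonal cytoskeleton genes, 3 rose and 3 fell in WT, and 1 of 13 tested rose and 4 fell in Plk3-KO, with a median change of 0.17 and 0.33. The WT counts are near the 21.3% and 26.9% of all probe sets. Tubb3, the neuronal beta-tubulin, fell by 1.30 in WT, and Tubb2b, a beta-tubulin of young neurons, fell by 4.47. Ina, alpha-internexin, the fourth neuronal partner of the neurofilament subunits, had means of 12.27 in WT at P0 and 12.13 in adults, a difference of -0.13 that did not pass the test. Map2, which binds microtubules of dendrites, rose by 0.93 in WT and by 1.13 in Plk3-KO.

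**Figure D5:**
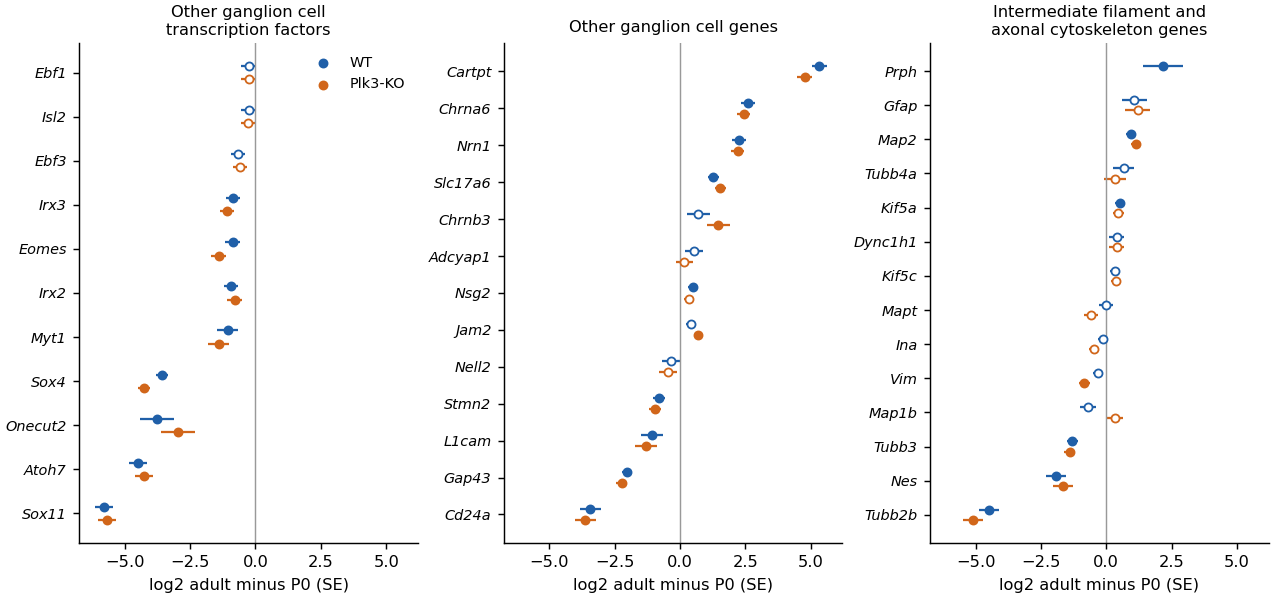
Log2 difference of adult minus P0 (x axes; bars are the standard error) for the genes of 3 lists that passed the minimum signal in WT, blue for WT and orange for Plk3-KO, filled where the adjusted p was under 0.05. No transcription factor lies above 0, while the other ganglion cell genes reach from Cd24a at -3.43 to Cartpt at 5.33 in WT.

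Across the 18 arrays, the genes whose signal was most like that of each member were sought among 12100 genes, by Pearson's r of their leading probe sets. These values describe arrays that share ages and libraries. Nefh was followed most closely by Nsf (r = 0.993), Cabp4 (0.990) and Sh3gl2 (0.989), where the top 1% of genes began at 0.968. Thy1 was nearest to Slc48a1, Gpsm3 and BC029722 (0.984 to 0.987). Nefm was nearest to Rbfox3 (0.953), which encodes the neuronal nuclear antigen NeuN, then to Dusp8 and Proser2, and Nefl to Gngt1 (0.953), the rod transducin gamma subunit, then to Lgi3 and Acaa2. Pou4f1 was nearest to Plppr1 (0.961), Cnot9 and Pdzrn3, and Isl1 to Tek (0.902), Cntn1 and Inpp5f. Rbpms was nearest to Jund (0.911), Gjc1 and Patz1. Sncg was nearest to A230051N06Rik (0.914), Fahd2a and Zfp759. Opn4, whose best match was the lowest of the 9, was nearest to H2aw (0.828), 3110070M22Rik and Sulf1. Once each group's mean was taken away, the deviations of Nefm correlated with those of Nefh and of Rbpms at 0.78 each over the 18 arrays, and those of Sncg with those of Nefl at 0.70. These were the highest values among all pairs of members, which ran down to -0.34 for Pou4f1 with Opn4. The P7 WT array 3, which stood apart, was the lowest of its group for Nefm (11.6), Nefh (9.3) and Rbpms (9.6). The part of array quality in these correlations was not tested.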

How the data were processed

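Retinal RNA of 18 samples (3 ages, 2 genotypes, 3 arrays per group) was amplified with a MessageAmp kit, labelled with biotin and hybridized to Affymetrix mouse genome arrays. The authors computed signals with MAS5 in the affy package of R and took log2. The deposited log2 values, from -5.1 to 19.2, were used as given, with no further normalization. Software versions are not given in the sources used here. The 64 control probe sets were left out. Of the remaining probe sets, 34945 carried 1 gene symbol, 932 several and 9160 none.

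limma 3.58.1 (R 4.3.3, statmod 1.5.0) fitted a mean per group to the 25085 probe sets with a mean above 7 in a group, with 12 residual degrees of freedom, a trended prior and Benjamini-Hochberg adjustment within each contrast (threshold 0.05) over probe sets with a mean above 7 in a group of it. The fit was tested on simulated data. The methods' t-test is two-tailed at an unadjusted 0.05; pooled variance was chosen here. Genes were named by the rule in the opening: the members, the 3 genes most like each by Pearson's r, and genes of other lists where a result turns on them. Members and lists were chosen with earlier results of these data known. Alternatives were quantile normalization, equal array medians, other signal minimums, array weights, leaving out arrays, a replicate block, fits on the 2 groups alone, the methods' t-test and means over a gene's probe sets. The number of arrays limits the precision. Promoters are from RefSeq. The E16.5 arrays of the study were not analysed here. Python 3.11.15, pandas 2.3.3, numpy 2.4.6 and matplotlib 3.10.9 made tables and figures.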

Additional observations from a re-analysis of the deposited data

How the results depend on the processing

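Of the 31 age changes of the 9 genes that passed the test, 16 passed under each of the 17 alternatives run for each, and none changed sign. Among the 1959 single differences recomputed, 46 lost and 33 gained a call, and 98 that were called under neither setting changed sign, 83 of them between genotypes. Counts of members called stayed within 1.5 times in 207 of 219 cases. The 5 calls from P7 to adult in Plk3-KO became 3 with the arrays set to the same median, 3 in a fit of the 2 groups only and 0 by the t-test of the methods once adjusted, and 3 to 5 with each array left out in turn. With array weights, whose estimate did not converge, the 4 calls of WT from P0 to P7 became 7 and the 3 from P7 to adult 6; the latter were 5 by the methods' t-test unadjusted and 0 after adjustment. That test gave 3 in place of 6 from P0 to P7 in Plk3-KO after adjustment, and 1 in place of 0 between genotypes in adults unadjusted. The cause of these shifts was not tested. The deviations of same-numbered WT and Plk3-KO arrays correlated at -0.61 to 0.379 at P0 and P7. In adults they correlated at 0.489, 0.098 and 0.544, against -0.633 to 0.413 for other numbers, and the adult WT array 2 correlated best with Plk3-KO array 1. With 1 adult pair below 0.1 and no pairing in the labels, the arrays were treated as sharing only a number; with the replicate block 5 in place of 4 members were called from P0 to P7 in WT, and no other count changed. Leaving out 4 arrays (both adult arrays 3, the P7 WT array 3 and the P7 Plk3-KO array 2) left the genotype counts at 0. Depth does not apply to arrays. Opn4 at all ages and Nefh at P0 lay near the minimum signal, where changes are least well measured.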
